A study of Arabidopsis thaliana with 2 samples.

Results

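The TOPLESS corepressor family of Arabidopsis has 5 genes, TOPLESS (TPL, AT1G15750), TOPLESS-RELATED 1 (TPR1, AT1G80490), TPR2 (AT3G16830), TPR3 (AT5G27030) and TPR4 (AT3G15880). Its DNA methylation was described at 14 of the 56731 genomic bins that the authors listed as differing between miP1a-OX and Col-0 seedlings. A bin belonged to the family when it overlapped one of these genes or the 3000 bases upstream of its annotated start, and no level of the bin entered that rule. Whole-genome bisulfite sequencing, in which unmethylated cytosines are converted and methylated ones are protected, had been carried out on 12-d-old seedlings with 1 library of each genotype. The miP1a-OX plants (miP1aOX in the sample labels) carry a 35S::FLAG-miP1a transgene, so the microProtein is driven by a viral promoter that is active in most tissues, and Col-0 is the wild type without it. No sample received a treatment, and DNA was extracted from seedlings, so every level is an average over organs and cell types. The labels give growth on soil under long days, whereas the methods place these seedlings on MS plates.

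TOPLESS proteins do not bind DNA themselves. Transcription factors and adaptors with a short repression motif recruit them through the amino-terminal part of the corepressor, and the corepressor in turn brings histone deacetylases to the target gene. The family acts in auxin, jasmonate and strigolactone signalling, in shoot meristems and in immunity, and miP1a is a B-box microProtein that links CONSTANS (CO), the activator of the florigen gene FT, to TPL. In plants, cytosines are methylated in the CG, CHG and CHH contexts, where H is any base but G. Methylation in the bodies of expressed genes is mostly in the CG context, while transposons and repeats carry it in all 3 contexts.

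A bin was 99 bases long on a grid of 100 bases, and its level was the share of methylated calls among all cytosine calls. The level pooled both strands and all contexts, because the cytosine number that the table states equalled the C plus G of the bin in 100% of the listed nuclear bins. Each listed bin had a p-value of at most 0.01 in a two-sided Fisher's exact test on the calls of both libraries. Since the list ends at this value, the p-values of single bins describe how far each one lay past it. With 1 library per genotype, this test compares the libraries and not the genotypes, and there is no replicate check for any value. Levels are given with 95% Clopper-Pearson intervals and differences with 95% Newcombe intervals. Both cover counting error only, since calls from the same read are not independent. The bisulfite conversion rate of the libraries was not used, so an unmethylated cytosine that stayed unconverted counts as methylated. Levels in bins outside the list are not analysed here.

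The 6 bins with a difference of more than 5 points in either direction, 3 of TPR2 and 3 of TPR3, are shown by sequence, and so is the adjoining pair of TPL, whose differences were small but which belongs to the corepressor that miP1a binds. Sequences are the plus strand in TAIR10.1 (RefSeq), with the cytosine and guanine of each CG in capitals. The last 2 TPR3 bins were lower in miP1a-OX and the other bins shown were higher.

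TPL chr1:5419601-5419699: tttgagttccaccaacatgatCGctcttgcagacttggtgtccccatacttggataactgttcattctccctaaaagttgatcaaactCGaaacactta
TPL chr1:5419501-5419599: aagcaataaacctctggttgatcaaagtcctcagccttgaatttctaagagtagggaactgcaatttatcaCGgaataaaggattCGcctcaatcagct
TPR2 chr3:5729201-5729299: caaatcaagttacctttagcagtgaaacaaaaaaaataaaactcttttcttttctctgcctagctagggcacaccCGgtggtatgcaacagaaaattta
TPR2 chr3:5729401-5729499: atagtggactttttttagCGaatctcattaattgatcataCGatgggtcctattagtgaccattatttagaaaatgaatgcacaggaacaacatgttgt
TPR2 chr3:5729801-5729899: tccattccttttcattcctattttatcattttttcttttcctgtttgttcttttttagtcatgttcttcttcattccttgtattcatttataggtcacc
TPR3 chr5:9510301-9510399: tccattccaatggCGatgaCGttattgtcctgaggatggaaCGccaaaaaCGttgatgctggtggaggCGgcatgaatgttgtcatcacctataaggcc
TPR3 chr5:9514301-9514399: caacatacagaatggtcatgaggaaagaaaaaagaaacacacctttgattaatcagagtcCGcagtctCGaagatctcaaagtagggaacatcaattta
TPR3 chr5:9514001-9514099: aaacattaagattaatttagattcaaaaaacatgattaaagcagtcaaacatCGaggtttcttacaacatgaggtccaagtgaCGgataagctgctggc

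Small differences in both directions characterised the family, and the single large one lay upstream of TPR2. Of the 14 listed bins, 9 had a higher level in miP1a-OX and 5 a lower one. The share of higher bins was 64.3% (interval 35.1% to 87.2%), against 64.0% of all 56184 listed nuclear bins. The median size of the difference was 3.59 percentage points in the family, against 8.03 points over all listed nuclear bins and 4.71 points over the 20897 listed bins that touch a protein-coding gene. Of the 14 bins, 0 reached the minimum difference that the study set for a differing region, 40 points. Of the 56184 listed nuclear bins 266 reached it, and of the 20897 that touch a protein-coding gene 25 did, both at any coverage. Listed bins that reached 40 points with at least 10 calls in each library made up 0.0189% of all bins of the nuclear genome. The minimum of 10 calls was added here.

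**Figure D1:**
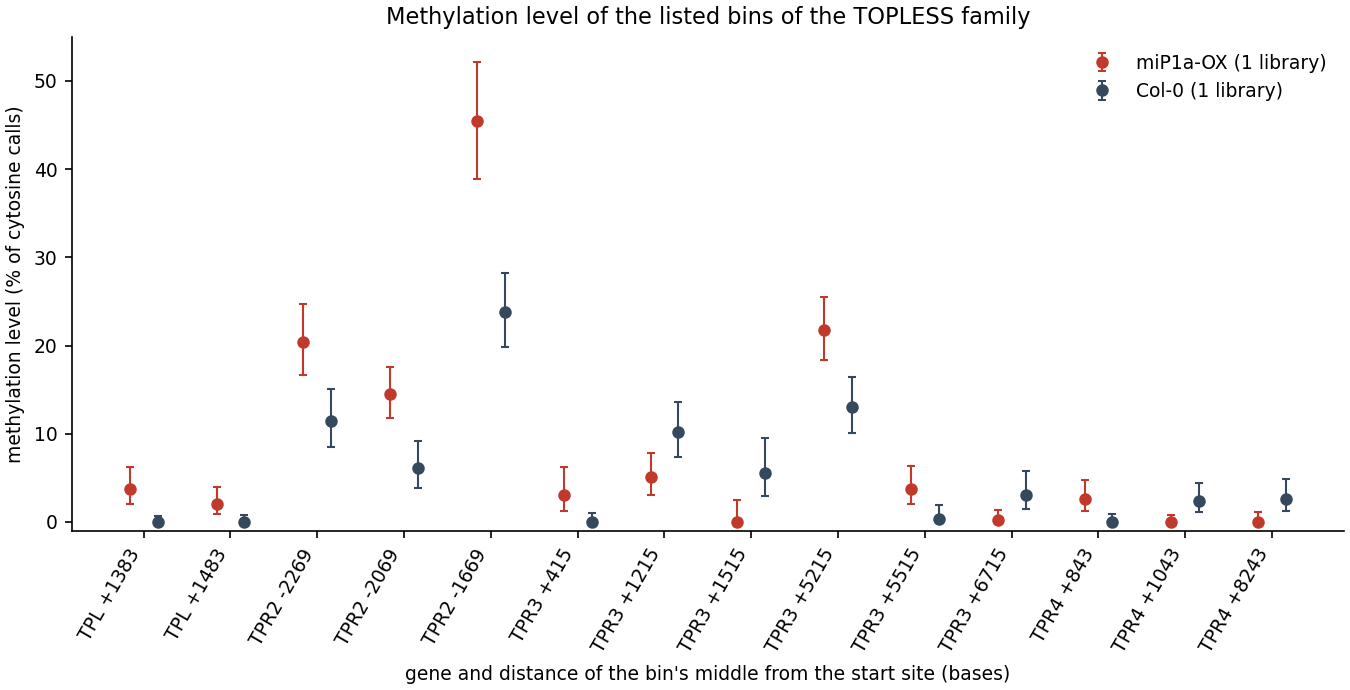
Methylation level, in percent of cytosine calls, of the 14 listed bins of the family, in miP1a-OX (red) and in Col-0 (dark blue), with 1 library of each. Bars are 95% Clopper-Pearson intervals and bins are named by the distance of their middle from the start site; the TPR2 bin at -1669 bases had 45.5% in miP1a-OX and 23.8% in Col-0, and 10 of the 14 bins were below 11% in both libraries.

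The share of listed bins in the family was near that in other genes, and the difference was not tested. The family genes and upstream stretches span 493 bins, of which 2.84% were listed, against 4.72% of the nuclear bins of the genome. Bins higher in miP1a-OX made up 3.02% of the nuclear bins. Over the same windows of all 27444 protein-coding genes the listed share was 3.64%. By gene, the share was between 0% for TPR1 and 6.06% for TPR3. At least 1 listed bin was found for 4 of the 5 family genes, against 72.1% of the protein-coding genes. The family genes are long, and among the 497 protein-coding genes with windows of the same length (9217 to 11213 bases) 94.2% had a listed bin, with a median of 3. These shares count every bin of the grid, also those without reads, since the covered bins outside the list are not known here.

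**Figure D2:**
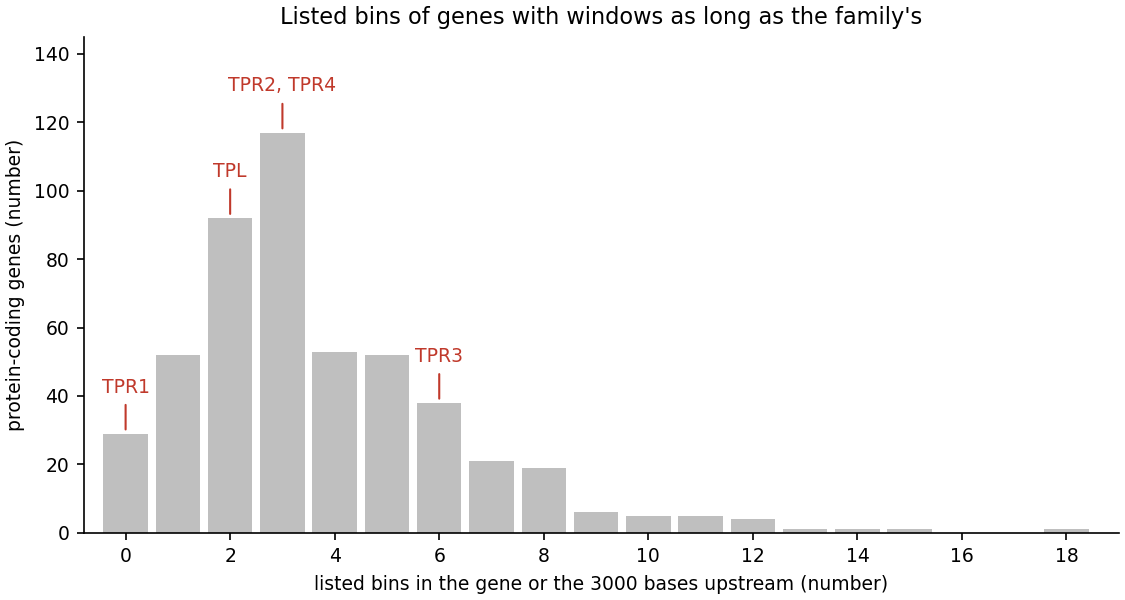
Number of protein-coding genes (vertical axis) by the number of listed bins in the gene or the 3000 bases upstream (horizontal axis), for the 497 genes with windows as long as those of the family. The family genes are marked in red above their number of bins; TPR1 had 0, TPL 2, TPR2 and TPR4 3 each, and TPR3 6.

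The listed bins of TPL, TPR3 and TPR4 were all in the gene, and those of TPR2 were all upstream. Of the 14, 11 lay in genes and 3 upstream. The bins in genes were split 6 higher and 5 lower in miP1a-OX, and the listed bins that touch any protein-coding gene were higher in 47.4%. All 3 upstream bins belonged to TPR2 and were higher in miP1a-OX, and of the listed bins outside protein-coding genes 73.8% were higher. Coding sequence together with intron sequence made up 9 bins, and 2 bins held only untranslated exon sequence of the family gene.

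**Figure D3:**
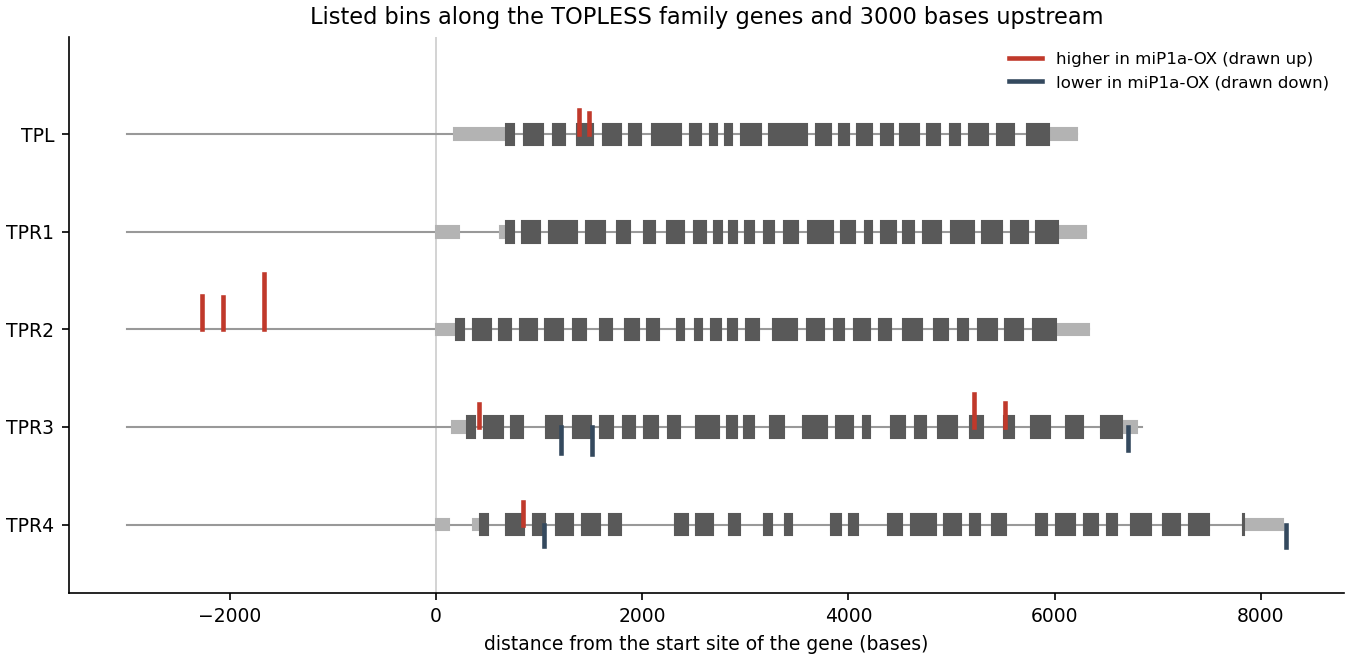
Gene models of TPL, TPR1, TPR2, TPR3 and TPR4 by distance from the start site in bases, with coding exons in dark grey, untranslated exons in light grey and introns and upstream sequence as a line. Each coloured stroke is a listed bin, drawn up in red where it was higher in miP1a-OX and down in dark blue where it was lower, and its length grows with the difference; all 3 strokes of TPR2 lie upstream, and TPR1 has none.

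TPL, the founding member and the corepressor that miP1a binds, had a pair of adjoining bins in which methylated calls were seen only in miP1a-OX. The gene lies on the minus strand of chromosome 1 (chr1:5414817-5421033, TAIR10.1) and has 22 exons and a coding sequence of 3396 bases in the transcript with the longest coding sequence, the one used for each gene. Both bins span parts of exon 4 and of an intron beside it. In the bin at chr1:5419601-5419699, 14 of 374 calls were methylated in miP1a-OX (3.74%, interval 2.06% to 6.20%), against 0 of 564 in Col-0. The limit at 3 calls is 0.532% there, and the Clopper-Pearson upper limit 0.652%. The difference was 3.74 points (interval 2.097 to 6.185, Fisher's exact p = 2.21e-06), and the p adjusted by the Benjamini-Hochberg method over all bins of the genome was 3.49e-04. In the bin at chr1:5419501-5419599, 9 of 432 calls were methylated in miP1a-OX (2.08%), against 0 of 487 in Col-0, which allows up to 0.616% (difference 2.08 points, Fisher's exact p = 0.00107, adjusted p = 0.0434).

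Each of these bins holds 4 CG cytosines, counted on both strands, among 41 and 40 cytosines in all. Over both, TPL had 23 methylated calls of 806 in miP1a-OX (2.85%) and 0 of 1051 in Col-0. The 14 and 9 methylated calls are no more than the 26 and 21 cytosines on the richer strand of each bin, a number that a single DNA fragment could supply. These were 2 of 93 bins in the window of TPL (2.15%), and 16.3% of the genes with windows of the same length had fewer listed bins.

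TPR1, the closest relative of TPL and a corepressor that acts with the immune receptor SNC1, had 0 listed bins among 94. The gene lies on the minus strand at chr1:30260818-30267125 and has 24 exons. Having 0 listed bins was shared by 5.84% of the genes with windows of the same length. The nearest listed bin beyond its window was 5119 bases downstream of it, with 18 methylated calls of 405 in miP1a-OX (4.44%) and 1 of 581 in Col-0 (0.172%). On the upstream side the nearest one was 4176 bases away, with 18 of 490 (3.67%) in miP1a-OX and 2 of 348 (0.575%) in Col-0. The coding sequences of TPL and TPR1 are 86.7% identical, the highest value in the family, and the best match of each TPL bin elsewhere in the genome was in TPR1, at 90.5% over 74 bases and 86.7% over 90 bases.

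TPR2 had the largest difference of the family, and its 3 listed bins were upstream of the gene and higher in miP1a-OX. The gene lies on the plus strand (chr3:5731519-5737854) with 25 exons, and 0 of its 64 bins inside the gene were listed. In the bin at chr3:5729801-5729899, which ends 1620 bases before the gene and lies 627 bases from its other neighbour AT3G16820, 105 of 231 calls were methylated in miP1a-OX (45.5%, interval 38.9% to 52.1%), against 100 of 420 in Col-0 (23.8%, interval 19.8% to 28.2%). The difference was 21.6 points (interval 14.0 to 29.1, Fisher's exact p = 2.21e-08, adjusted p = 7.65e-06), and its size exceeded that of 97.2% of the listed nuclear bins. The intervals of the libraries do not overlap in this bin or in the other bins of TPR2. Bins were listed because the libraries differed, so this separation adds no support.

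The same bin holds no CG at all. Its 29 cytosines are 2 CHG and 27 CHH, so the level came from non-CG cytosines alone in both libraries. Bins without a CG made up 17.5% of the listed nuclear bins and 17.5% of the nuclear bins of the genome. They were higher in miP1a-OX in 73.6% of cases, against 62.0% of listed bins with a CG. Depth in the bin was 15.9-fold in miP1a-OX and 29.0-fold in Col-0, taken as calls over covered cytosines on both strands, doubled. Of the 14 family bins it was also the only one with close copies elsewhere, 4 stretches with at least 90% identity over at least 80 bases, all outside genes. One copy, at chr3:20090350-20090442, falls partly in a listed bin, with 110 methylated calls of 371 in miP1a-OX (29.6%) and 94 of 442 in Col-0 (21.3%). How reads that match several copies were placed, and their part in the difference, was not tested.

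The other bins upstream of TPR2 lie further from the gene, and all 3 are nearer to AT3G16820 than to TPR2. At chr3:5729401-5729499, which ends 2020 bases before TPR2, 86 of 593 calls were methylated in miP1a-OX (14.5%), against 21 of 345 in Col-0 (6.09%). That is a difference of 8.42 points (interval 4.41 to 12.1, Fisher's exact p = 6.96e-05, adjusted p = 0.00544). At chr3:5729201-5729299, 2220 bases before TPR2 and 27 bases from AT3G16820, 82 of 401 calls were methylated in miP1a-OX (20.4%), against 44 of 384 in Col-0 (11.5%). This difference was 8.99 points (interval 3.88 to 14.1, Fisher's exact p = 6.41e-04, adjusted p = 0.0297). Summed over its 3 bins, TPR2 had 273 methylated calls of 1225 in miP1a-OX (22.3%) and 165 of 1149 in Col-0 (14.4%), and both libraries were methylated in every bin.

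TPR3 had the most listed bins, 6 of 99, all of them inside the gene. It lies on the minus strand at chr5:9508718-9515565 with 24 exons, and 79.5% of the genes with windows of the same length had fewer listed bins. The directions were mixed, with 3 bins higher and 3 lower in miP1a-OX. The pooled level over the 6 bins was 7.74% in miP1a-OX (159 of 2054 calls) and 6.13% in Col-0 (123 of 2006 calls).

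The most methylated TPR3 bin lies late in the gene, in exon 20 and the intron before it (chr5:9510301-9510399). There 119 of 546 calls were methylated in miP1a-OX (21.8%, interval 18.4% to 25.5%), against 61 of 469 in Col-0 (13.0%, interval 10.1% to 16.4%). The difference was 8.79 points (interval 4.12 to 13.4, Fisher's exact p = 2.75e-04, adjusted p = 0.0156). With 10 CG among its 49 cytosines it had the highest number and share of CG of the family bins, 20.4%. It was also the only bin inside a family gene whose level was above 11% in either library.

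Further on, in exon 21 and the intron before it (chr5:9510001-9510099), 13 of 343 calls were methylated in miP1a-OX (3.79%) and 1 of 287 in Col-0 (0.348%). That difference was 3.44 points (Fisher's exact p = 0.00457, adjusted p = 0.123). The third TPR3 bin that was higher in miP1a-OX covers the end of exon 1 and the start of intron 1 (chr5:9515101-9515199). It had 7 methylated calls of 228 in miP1a-OX (3.07%) and 0 of 350 in Col-0, which allows up to 0.857% (difference 3.07 points, Fisher's exact p = 0.0014, adjusted p = 0.0529). Like the large TPR2 bin, it holds no CG.

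The TPR3 bins that were lower in miP1a-OX lie in exon 4 and intron 4, in exon 5 and intron 5, and in the untranslated part of exon 24. At chr5:9514301-9514399, 19 of 376 calls were methylated in miP1a-OX (5.05%), against 40 of 394 in Col-0 (10.2%), a difference of -5.10 points (Fisher's exact p = 0.0096, adjusted p = 0.205). At chr5:9514001-9514099, 0 of 145 calls were methylated in miP1a-OX, which allows up to 2.07%, against 12 of 216 in Col-0 (5.56%), with Fisher's exact p = 0.00213 and adjusted p = 0.0715. The libraries covered different numbers of cytosines in this bin, 32 of 35 in miP1a-OX and 16 of 35 in Col-0, and in the other 13 family bins both covered every cytosine. In the last TPR3 bin (chr5:9508801-9508899), 1 of 416 calls was methylated in miP1a-OX (0.240%), against 9 of 290 in Col-0 (3.10%), with Fisher's exact p = 0.00197 and adjusted p = 0.0676. That bin overlaps the neighbouring gene AT5G27020 and cannot be assigned to TPR3 alone.

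TPR4, listed as WSIP2 in RefSeq, had 3 bins of low level, each with 0 methylated calls in one library. The gene lies on the minus strand at chr3:5364081-5372293 with 27 exons, and 3 of 113 bins in its window were listed (2.65%). In exon 3 and intron 3 (chr3:5371401-5371499), 10 of 385 calls were methylated in miP1a-OX (2.60%), against 0 of 426 in Col-0, which allows up to 0.704% (Fisher's exact p = 5.46e-04, adjusted p = 0.0263). In exon 4 and intron 4, 200 bases downstream (chr3:5371201-5371299), the order was the opposite, with 0 of 452 calls in miP1a-OX, which allows up to 0.664%, against 9 of 384 in Col-0 (2.34%, Fisher's exact p = 8.65e-04, adjusted p = 0.0371).

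The last TPR4 bin lies at the end of the gene (chr3:5364001-5364099), where 0 of 315 calls were methylated in miP1a-OX, which allows up to 0.952%, against 9 of 345 in Col-0 (2.61%, Fisher's exact p = 0.00398, adjusted p = 0.112). Only 19 of its bases belong to TPR4, in the untranslated part of the last exon, and it overlaps the neighbouring gene AT3G15870. Summed over the 3 bins, TPR4 had 10 methylated calls of 1152 in miP1a-OX (0.868%) and 18 of 1155 in Col-0 (1.56%).

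Many of the bins held few methylated calls. The 3 TPR2 bins and the most methylated TPR3 bin had between 82 and 119 in miP1a-OX. In 7 of the 14 bins one library had 0 methylated calls, 3 times miP1a-OX and 4 times Col-0. All 7 were among the 11 bins in genes (63.6%), and of the listed bins that touch any protein-coding gene 42.0% had 0 in one library. In 9 of the 14 bins the methylated calls of the higher library were no more than the cytosines on the richer strand (64.3%). Over all listed nuclear bins that share was 29.9%. All 9 were among the 11 bins in genes (81.8%), against 61.7% of the listed bins that touch a protein-coding gene. With so few bins, these shares were not tested. After adjustment over all bins of the genome, p was at most 0.01 in 3 of the 14 bins, the TPL bin at chr1:5419601-5419699 and the TPR2 bins at chr3:5729401-5729499 and chr3:5729801-5729899, all higher in miP1a-OX. That is 21.4% of the family bins, against 32.2% of all listed nuclear bins. Inside the genes it was 1 of the 11 bins (9.09%), against 35.7% of the listed bins that touch a protein-coding gene. When the methylated calls that 1 fragment could supply were taken from the higher library, 2 bins kept a p of at most 0.01, and both were these TPR2 bins.

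Sequence context varied among the members. Of the 513 cytosines in the 14 bins, 53 were in the CG, 79 in the CHG and 381 in the CHH context. CG was absent from 2 bins, and the other bins held between 2 and 10. Depth over the family bins was between 9.06-fold and 35.9-fold in miP1a-OX and between 13.7-fold and 29.0-fold in Col-0, with 145 to 593 calls in miP1a-OX and 216 to 564 in Col-0. Because calls are pooled over contexts, a level of a few percent cannot be told apart as CG, CHG or CHH methylation, except that the bins with no CG carry none of the first kind.

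**Figure D4:**
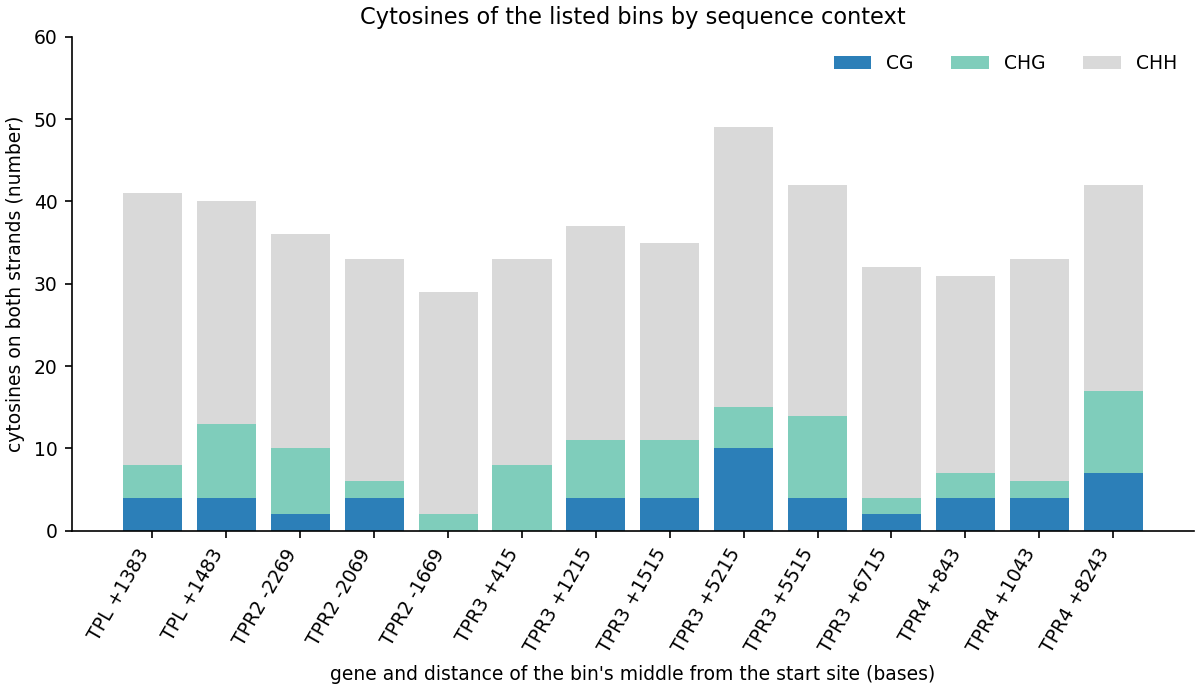
Number of cytosines on both strands of each listed family bin, stacked by context, CG in blue, CHG in green and CHH in grey. The TPR2 bin at -1669 bases and the bin 415 bases into TPR3 hold no CG, and the bin 5215 bases into TPR3 holds 10.

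Among the coding sequences, pairs within the family fell in a range of identity from 62.5% (TPR2 and TPR4) to 86.7% (TPL and TPR1). TPR2 and TPR3 were 69.5% identical, and TPR1 and TPR4 67.4%. Of the closest relatives, TPL had 2 listed bins and TPR1 had 0, and TPR2 had them upstream and TPR3 in the gene. Genes with windows of the same length had a median of 3 listed bins, and 5.84% had 0. Differing counts are therefore not read as a trait of these relatives. No test of that difference between genes was made.

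Partner genes, with reported or proposed links to the TOPLESS family, were described in the same way. The list of 37 holds DNA-binding factors, adaptors, other corepressors and chromatin enzymes. A listed bin was found for 25 of them, against 72.1% of the protein-coding genes. These 25 genes held 68 bins, 36 higher and 32 lower in miP1a-OX, and 0 of them reached a difference of 40 points. The median size of the difference was 4.84 points. By gene, 10 had only higher bins, 6 only lower bins and 9 both. A gene with 1 listed bin, such as HDA19, KIX8 or IAA17, could not have both. The split is therefore no measure of agreement within genes, and it was not tested.

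The 3 partner genes with the largest differences were PRR7, WUS and miP1b. PRR7, a clock repressor that recruits TPL, had 11 methylated calls of 267 in miP1a-OX (4.12%) and 48 of 183 in Col-0 (26.2%) in one bin inside the gene, a difference of -22.1 points (Fisher's exact p = 1.17e-11, adjusted p = 1.08e-08). Of its 4 other bins, 1 inside the gene was higher in miP1a-OX, with 12.1% in miP1a-OX and 5.81% in Col-0, and 3 were lower. The smallest p belonged to an upstream bin with 0 of 462 calls in miP1a-OX, which allows up to 0.649%, and 31 of 319 (9.72%) in Col-0 (Fisher's exact p = 3.57e-13, adjusted p = 4.85e-10). WUS, the stem-cell factor of the shoot meristem whose repression goes through TOPLESS proteins, had 3 adjoining bins upstream, all higher in miP1a-OX. The largest of these differences was 18.6 points, with 90 of 198 calls (45.5%) in miP1a-OX and 48 of 179 (26.8%) in Col-0 (Fisher's exact p = 1.81e-04, adjusted p = 0.0114). miP1b, the close relative of miP1a, had 161 of 338 calls (47.6%) in miP1a-OX and 187 of 521 (35.9%) in Col-0 in one upstream bin (difference 11.7 points, Fisher's exact p = 6.47e-04, adjusted p = 0.0299). Its second bin had 34.1% in miP1a-OX and 45.7% in Col-0, a difference of -11.6 points.

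**Figure D5:**
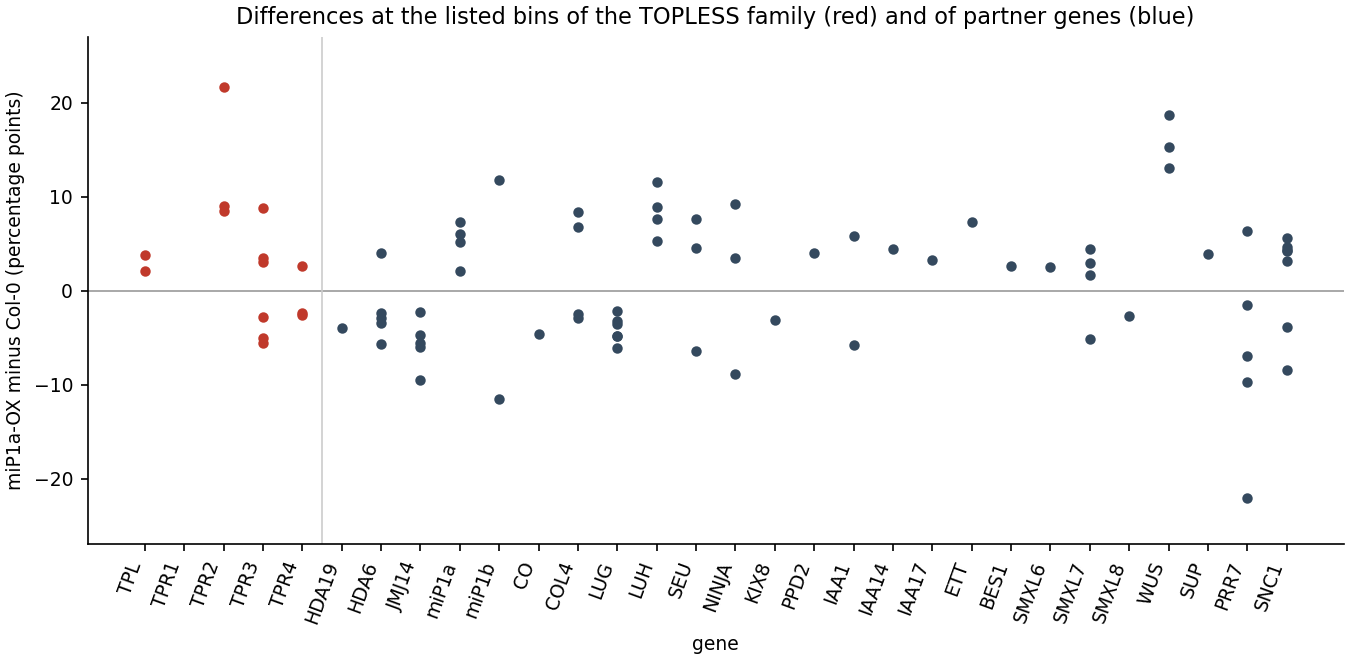
Difference in methylation level between miP1a-OX and Col-0, in percentage points, at each listed bin of the family (red) and of the 25 partner genes with a listed bin (dark blue), by gene. Points above 0 were higher in miP1a-OX; the lowest point is the PRR7 bin at -22.1 points, and the highest the TPR2 bin at 21.6 points.

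By role, the partners were mixed. Their windows span 2209 bins, of which 3.08% were listed, against 3.64% over all protein-coding genes. Inside the genes 16 of the 37 partner bins were higher in miP1a-OX, and upstream 20 of 31, against 47.4% of the listed bins that touch a protein-coding gene and 73.8% of those outside. The counts for single genes are small and were not tested. The calls that 1 fragment could supply were not taken into account for partner bins. The histone deacetylases HDA19 and HDA6, the enzymes that TOPLESS proteins recruit, had 6 bins, 1 higher and 5 lower in miP1a-OX. JMJ14, a histone demethylase that the study proposes to act with TPL, had 5 of 84 bins listed, all lower. Of the other corepressors, LUG, a corepressor with a related domain structure, had 6 of 93, all in the gene and lower, and its relative LUH had 4 of 86, all upstream and higher. Col-0 levels were between 2.12% and 6.15% in the LUG bins and between 0.301% and 40.5% in the LUH bins. For the 6 Aux/IAA repressors, which dock auxin response factors to TPL, 3 genes had 4 listed bins, 3 higher and 1 lower. The strigolactone repressors SMXL6, SMXL7 and SMXL8 had 6 bins, 4 higher and 2 lower. SNC1, the immune receptor that acts through TPR1, had 7 of 88 bins listed, 5 higher and 2 lower. miP1a itself had 4 bins, all higher in miP1a-OX, of which 2 lie in the gene, where reads from the transgene and from the endogenous copy cannot be told apart. CO had 1 bin, with 0 of 328 methylated calls in miP1a-OX, which allows up to 0.915%, and 15 of 322 in Col-0 (4.66%).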

How the data were processed

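The data were 2 whole-genome bisulfite libraries of 12-d-old seedlings, 1 of miP1a-OX and 1 of Col-0. Reads had been mapped to TAIR9 with BS-Seeker2 2.1.0, per the submitters' processing notes, and with Bowtie2, per the methods, and levels had been computed with Methpipe. For 56731 bins the authors deposited raw counts, the methylated calls and the unmethylated calls in either library, with no scaling. The listed bins hold 24269108 calls in miP1a-OX and 24091300 in Col-0. The table has 10 further columns of library values that were left aside. Columns that hold the authors' own comparison, and their merged annotated list, were left aside too.

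A two-sided Fisher's exact test was run per bin with scipy 1.17.1, in python 3.11.15 with pandas 2.3.3 and numpy 2.4.6, and tested on simulated data of 5000 bins with 200 changed. Benjamini-Hochberg adjustment took the 1196690 bins of the whole genome, organelles included, as the number of tests. Of these, 1191466 are nuclear. Thresholds were a p of 0.01, an absolute difference of 40 points and 10 calls in each library. Where no call was methylated, the upper limit was set at 3 calls. Copies were searched with blastn 2.17.0, coding sequences were aligned with mafft 7.526 and figures drawn with matplotlib 3.10.9. Gene positions come from RefSeq on TAIR10.1. Its C plus G equalled the cytosine number of all listed nuclear bins.

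All family genes were named with every listed bin, and of the partner list the 3 genes with the largest absolute difference. The members, the lists and the tests were chosen with earlier results of these data known. Alternatives were coverage minimums, adjustment, window lengths, bins wholly inside the window, thinning of the deeper library, removal of the calls of 1 fragment, other difference thresholds and centring on the median of the listed nuclear bins. Mean values per gene over all bins were not computed, because bins above the threshold were not used here.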

Additional observations from a re-analysis of the deposited data

How the results depend on the processing

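No paired analysis was possible because only 1 library was made per genotype, so no library could be left out either. Coverage minimums of 1, 20 and 50 calls left 14 bins. With 1000 bases upstream or the gene alone, 11 bins in 3 genes were left, 54.5% of them higher in miP1a-OX, and TPR2 with the largest difference of the family had none. With 2000 bases upstream, 12 bins in 4 genes were left. With Benjamini-Hochberg adjustment over all bins of the genome, 3 bins in 2 genes had p of at most 0.01, and 100% of them were higher in miP1a-OX. The share that passed was 21.4% in the family and 32.2% among all listed nuclear bins. With the calls of 1 DNA fragment removed from the higher library, 2 bins in 1 gene remained, 100% of them higher. In 9 of the 14 bins the removal took every methylated call of the higher library, so these bins could not remain. In that setting 2 TPR3 differences changed sign, to 0.240 points at chr5:9508801-9508899 and to -0.348 points at chr5:9510001-9510099. Both changes follow from the setting, since the higher library was left with 0 methylated calls and the other library kept its 1. With a threshold of at least 10 or of at least 20 points in place of 40, the bin 1620 bases before TPR2 passed, 1 bin in either case. Centred on 5.26 points, the median difference of the listed nuclear bins, 28.6% of the family bins were higher in miP1a-OX. Every positive difference below 5.26 points had to change sign in this setting. The median was -1.88 points over listed bins that touch a protein-coding gene and 8.16 points over those outside. Most family bins (11) lie in genes, and centring on the median of bins in genes was not run. The bins that changed sign under centring were those of TPL (-1.52 and -3.18 points), 2 of TPR3 (-1.82 points at chr5:9510001-9510099 and -2.19 points at chr5:9515101-9515199) and the TPR4 bin at chr3:5371401-5371499 (-2.67 points). Thinning the deeper library took 2 TPR3 bins over the threshold of 0.01, to p = 0.0204 at chr5:9508801-9508899 and p = 0.0149 at chr5:9515101-9515199 (Fisher's exact test). Depth limits the bins with 0 methylated calls, whose upper limits at 3 calls lie between 0.532% and 2.07%.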
